A study of Homo sapiens with 7 samples.

Results

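The loci of PTF1A, NR5A2, RBPJL, BHLHA15 and CPA1, 5 genes of the acinar lineage of the pancreas, were examined for occupancy by the transcription factors HNF6, GATA6 and NKX6.1 during differentiation of human pluripotent cells. A listed region belonged to a locus when its midpoint lay within 100 kb of the gene span on hg19. The spans were chr10:23481460-23483181 for PTF1A, chr1:199996770-200146550 for NR5A2, chr20:43935491-43945803 for RBPJL, chr7:97841566-97842271 for BHLHA15 and chr7:130020290-130027949 for CPA1. Of 86081 listed regions in all, 57 belonged to these loci: 45 of HNF6 on day 10, 5 of GATA6 on day 10, 7 of NKX6.1 on day 13 and 0 of HNF6 on day 5. Each region carries a score by the authors, compared here only within a list. The member farthest from its gene was an HNF6 region 98.4 kb before PTF1A (score 89), and the nearest region left out was an HNF6 region 102.4 kb before BHLHA15 (score 13).

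The cells were CyT49, an established human embryonic stem cell line without a genetic change given in the labels, which was differentiated toward pancreas in culture. GATA6 and HNF6 were immunoprecipitated from cells of day 10, which the submitters call pancreatic progenitors positive for NKX6.1, NKX6.1 from cells of day 13, and HNF6 also from gut tube endoderm of day 5. There was 1 library for each factor and day, the 3 input libraries were not analysed here, and no cells of a mature acinar type were part of the series. No difference has a replicate check. No test was made beyond setting exact intervals of shares beside the shares of the lists. The extraction protocol names an NKX6.1 antibody for every library, whereas the titles and antibody labels, followed here, name each factor. The GATA6 list is partial, with 6285 of 19404 peak numbers given, and every listed GATA6 region overlaps an HNF6 region of day 10.

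PTF1A is a basic helix-loop-helix factor required to form the pancreas, and it is later kept in acinar cells, the cells that secrete digestive enzymes. There it works in a complex with an E protein and either RBPJ or, in mature acinar cells, RBPJL. NR5A2, also named LRH-1, is a nuclear receptor of acinar and other endodermal cells. BHLHA15, also named MIST1, is a helix-loop-helix factor that builds up the secretory machinery, and CPA1 is the digestive enzyme carboxypeptidase A1, which in the mouse also marks multipotent progenitors at the tips of the pancreatic buds. HNF6 (ONECUT1), GATA6 and NKX6.1 act in pancreatic progenitors, and NKX6.1 and PTF1A are known from mouse work to repress each other as progenitors choose between an endocrine or ductal and an acinar fate.

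The only listed region that covered the start of a gene span was a GATA6 region at NR5A2, so the promoter windows of that gene are shown. RefSeq (GRCh38.p14) lists a pair of starts for NR5A2, both on the plus strand and 14881 bp apart, with windows of 250 bases before to 50 bases after each start. Of the 5 genes 4 had a window in that table, and PTF1A had none. Because the peak lists are on hg19 and no sequence of that build was used here, the windows could not be laid base by base on the regions. Capitals mark the core GATA word GATAA on either strand, and no other searched word was found.
NR5A2 first start: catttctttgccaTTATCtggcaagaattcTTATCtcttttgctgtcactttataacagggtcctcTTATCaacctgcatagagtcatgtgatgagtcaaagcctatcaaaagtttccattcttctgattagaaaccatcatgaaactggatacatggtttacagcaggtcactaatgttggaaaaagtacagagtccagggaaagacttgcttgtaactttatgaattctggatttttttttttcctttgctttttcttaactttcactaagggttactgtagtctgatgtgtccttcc
NR5A2 second start: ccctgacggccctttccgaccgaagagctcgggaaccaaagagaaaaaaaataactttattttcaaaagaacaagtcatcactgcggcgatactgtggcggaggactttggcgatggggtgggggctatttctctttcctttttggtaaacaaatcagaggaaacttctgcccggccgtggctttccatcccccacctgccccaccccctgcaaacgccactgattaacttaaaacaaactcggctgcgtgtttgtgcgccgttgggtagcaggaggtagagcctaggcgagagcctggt

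The window of the first NR5A2 start held 3 matches of GATAA, all on the minus strand, whose first bases lay 237, 220 and 184 bases before the start. The window of the second start held 0. GATAA was found at least once in 22.7% of all 35116 RefSeq windows of this length and at least 3 times in 0.891% of them. The first NR5A2 window was poor in G and C, at 36.7%, against 52.7% in the second window and a median of 58.7% over all windows. Among the 4131 windows with at most 40% G and C, 4.41% held GATAA at least 3 times. The CPA1 window held 2 matches, and at least 2 were found in 4.80% of all windows. The RBPJL window held 1 and the BHLHA15 window 0. The HNF6 words ATCAAT and ATCGAT, present on either strand in 6.96% of all windows, and the NKX6.1 word TAATTA, present in 4.84%, were in none of the 5 windows. No 2 matches overlapped. A match is a description of these letters and not a measured site.

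PTF1A and NR5A2 held most of the HNF6 regions of day 10. The PTF1A window of 201.7 kb held 15 regions and the NR5A2 window of 349.8 kb held 16. The BHLHA15 and CPA1 windows held 5 and 6, and the RBPJL window held 3. Over stretches of the same lengths the whole HNF6 list averaged 4.29 regions for PTF1A, 7.44 for NR5A2, 4.27 for BHLHA15, 4.42 for CPA1 and 4.47 for RBPJL. RBPJL was thus the locus with fewer HNF6 regions than the mean of the list. Summed over the 5 windows, HNF6 had 3.85 regions per 100 kb, against 2.13 in the whole list. GATA6 had 0.427 against 0.206, and NKX6.1 had 0.598 against 0.479. For GATA6 this rests on 5 regions, 3 of them at NR5A2, and the list mean gives 2.41 over the 5 windows. For NKX6.1 it rests on 7 regions, where the list mean gives 5.61. Every listed GATA6 region overlaps an HNF6 region of day 10, so the GATA6 density is not separate from that of HNF6. The HNF6 density came mostly from PTF1A and NR5A2. List means also cover gene deserts and assembly gaps, and whether the densities differ from those of the lists was not tested.

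**Figure D1:**
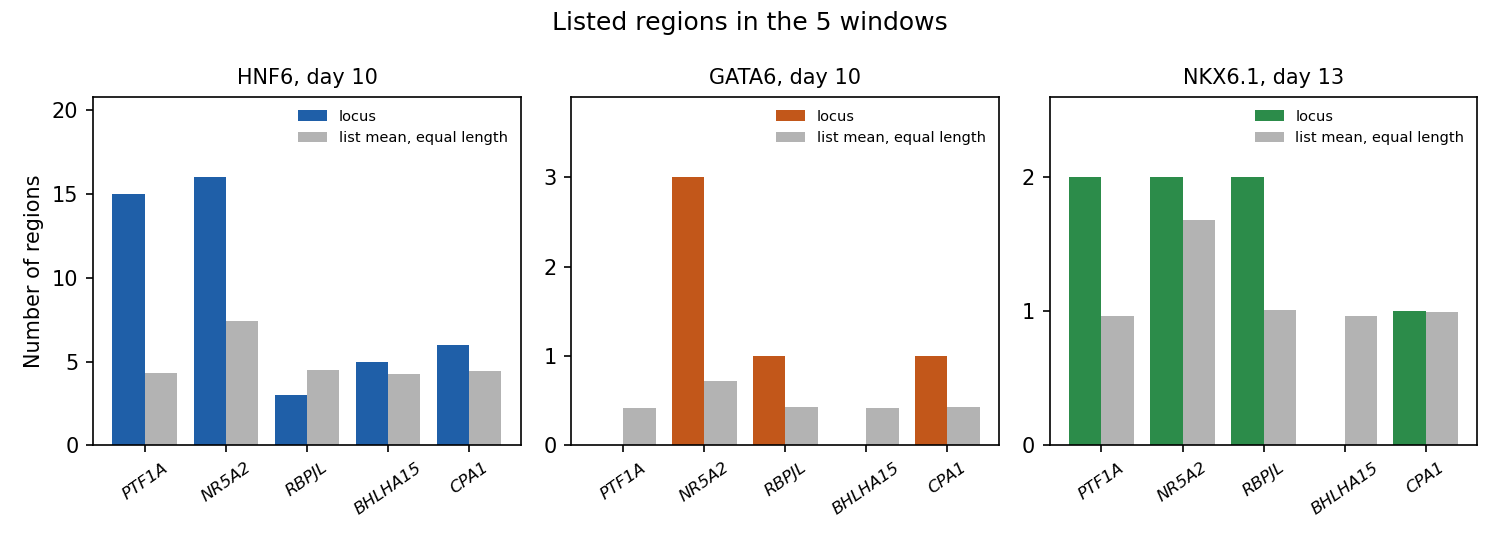
Number of listed regions within 100 kb of each gene (coloured bars) beside the mean of the whole list over the same length (grey bars), for HNF6 and GATA6 on day 10 and NKX6.1 on day 13, from 1 library each. PTF1A and NR5A2 have the most HNF6 regions, 15 in a window of 201.7 kb and 16 in one of 349.8 kb. As many were found in 1.21% and 7.69% of genome stretches of those widths. BHLHA15 has no coloured bar for GATA6 or NKX6.1, and PTF1A has none for GATA6.

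The counts were also read against adjacent tiles of the same width laid along all chromosomes, which include gene deserts and assembly gaps. As many HNF6 regions as at PTF1A were found in 1.21% of the tiles, and as many as at NR5A2 in 7.69%. The shares were 32.0% for CPA1, 40.5% for BHLHA15 and 67.1% for RBPJL, so those 3 loci were ordinary in number. With the HNF6 list cut to scores at or above its median, PTF1A held 8 regions, reached by 2.09% of tiles, NR5A2 held 7, reached by 17.0%, and RBPJL still held 3, reached by 37.2%.

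PTF1A carried its strongest HNF6 region just past the gene. It lay at chr10:23487034-23487380, with its midpoint 5.75 kb past the start and 4.03 kb past the end of the span. Its score of 1139 stood at percentile 98.0 of the HNF6 list, at rank 1277 of 64919. A percentile here is the share of a list's regions with a lower score, a tied score taking the middle of its ties. The same region held an NKX6.1 region of 76 bp, chr10:23487268-23487343, which was weak in its own list, with a score of 39 at percentile 31.0.

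The other 14 HNF6 regions of PTF1A lay on both sides of the gene, 6 before and 8 past it, and none overlapped the span. The 15 scores ran from 26 over a median of 89 to 1139. The median percentile was 55.4, with 6 of the 15 under percentile 25, against 25.3% of the whole list, a difference that was not tested. The second highest score, 166 at percentile 74.7, belonged to a region 67.9 kb before the start. Apart from 1 strong region the locus was therefore made of middling and weak ones. The region nearest to the start on the other side was weak, with a score of 36 at percentile 13.7, 10.8 kb before the gene.

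At PTF1A 6 of the 15 HNF6 regions had another HNF6 midpoint within 2 kb, and the exact 95% interval of that share, 16.3 to 67.7%, includes the 18.2% of the whole list. They formed 3 pairs with midpoints 480.5, 887.5 and 1000.5 bp apart, centred on either side of the gene. Over the 5 loci 10 of 45 regions had such a neighbour, or 22.2% (exact 95% interval 11.2 to 37.1), so neither PTF1A nor the loci together could be told from the list. Members of a pair are counted together and are not separate draws, so both intervals are too narrow. A distal enhancer downstream of PTF1A is known from human pancreatic agenesis. A weak HNF6 region (score 33, percentile 11.9) lay 24.6 kb past the end of the gene at chr10:23507623-23507868, and whether any listed region falls within that enhancer was not tested.

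NKX6.1 also occupied a second position at PTF1A, away from HNF6 of day 10. That region, chr10:23542859-23543081, had a score of 317, at percentile 97.0 and rank 428 of 14627 in the NKX6.1 list. It lay 61.5 kb past the start, and the nearest HNF6 midpoint was 7.71 kb away. At least 2 NKX6.1 regions, as at PTF1A, were found in 26.0% of the tiles of this width. No listed GATA6 region lay in the PTF1A window, and the nearest was 608.2 kb from the gene. The whole GATA6 list averages 0.415 regions over this length, and the median tile of this width held 0. An empty window is thus common for GATA6. The GATA6 peak numbers follow position along each chromosome, and 3 unlisted numbers fall between the listed neighbours of PTF1A, which are 1355 kb apart. At most 3 numbered GATA6 peaks could thus lie in the PTF1A window.

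**Figure D2:**
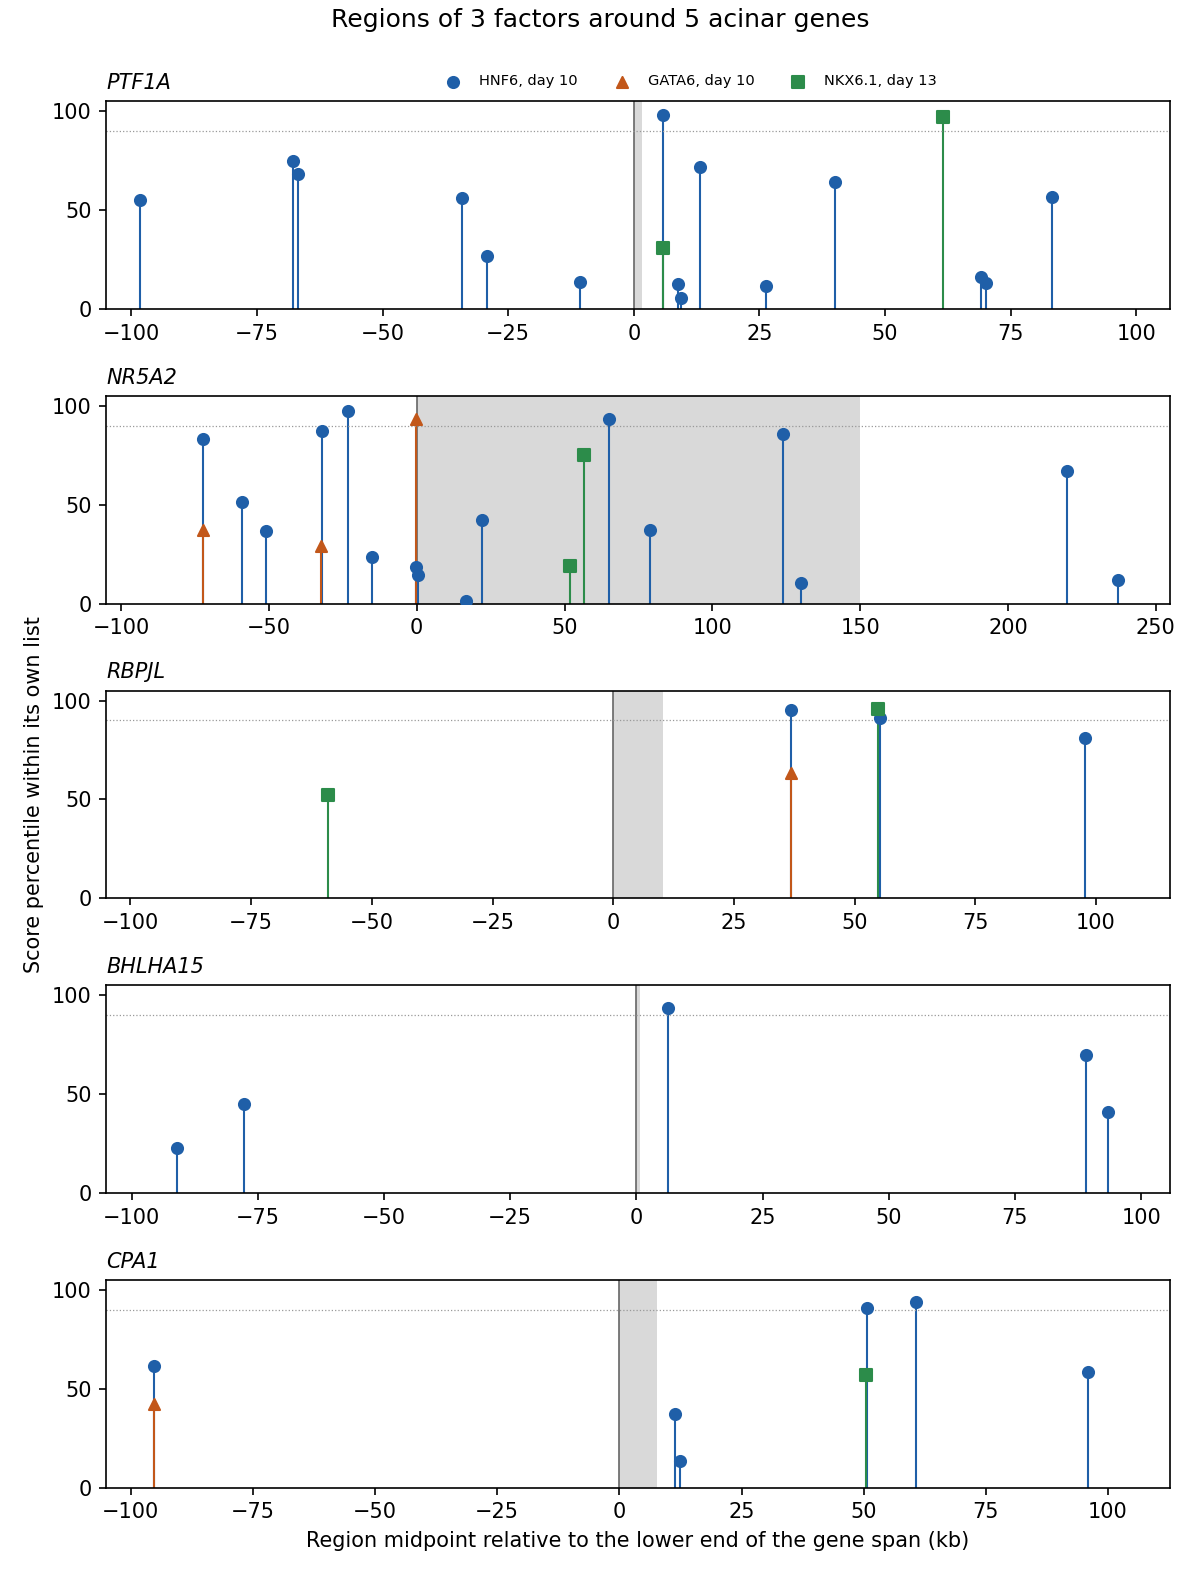
Every listed region at the 5 genes, by the distance of its midpoint from the lower end of the gene span (kb) and by its score percentile within its own list; grey shading is the gene span and the dotted line is percentile 90. The strongest HNF6 region of PTF1A stands 5.75 kb past the start, the GATA6 region of NR5A2 stands on the start at percentile 93.6, and RBPJL has HNF6 regions on its far side alone.

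NR5A2, with the widest window, had 3 listed GATA6 regions, and 1 with scores at or above the list median. Its GATA6 region at the start had the highest score of the 5 listed GATA6 regions of all loci. It lay at chr1:199996315-199996822, from 455 bases before to 52 bases past the start of the span. Its score of 681 stood at percentile 93.6 of the listed GATA6 regions, at rank 401 of 6285. HNF6 was weak there: the HNF6 region inside it, chr1:199996356-199996657, had a score of 41 at percentile 18.7, and it ended 112 bases before the start. A further weak HNF6 region, chr1:199996971-199997147, lay inside the span with 200 bases between it and the start (score 37, percentile 14.4). No HNF6 region of any of the 5 loci covered the start of its gene.

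The other GATA6 regions of NR5A2 lay farther upstream and ranked lower in the GATA6 list. At chr1:199924229-199924787, with its midpoint 72.3 kb before the start, HNF6 had a score of 247 at percentile 83.3. The GATA6 region within it had a score of 74 at percentile 37.1. At chr1:199964392-199964889, HNF6 had a score of 322 at percentile 87.5, with its midpoint 32.0 kb before the start. The overlapping GATA6 region there scored 61, at percentile 29.4. At least 3 GATA6 regions, as at NR5A2, were found in 6.67% of the tiles of its width. Since every listed GATA6 region overlaps HNF6, that share is not separate from the HNF6 count. Between the listed neighbours of the window fall 8 unlisted GATA6 numbers.

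Strong HNF6 regions at NR5A2 were found both before and inside the gene. The highest, chr1:199973252-199973906, had a score of 964 at percentile 97.3 and was centred 23.2 kb before the start, with neither GATA6 nor NKX6.1. Within the gene, chr1:200061486-200061828 had a score of 560 at percentile 93.6, 64.9 kb past the start. In all 7 regions lay before the gene, 7 inside it and 2 past its end. Scores ran from 17 over a median of 64.5 to 964, and the median percentile was 39.98. As at PTF1A, 6 regions were under percentile 25, here of 16. Over the 5 loci 14 of 45 were, against 25.3% of the whole list. Whether weak regions are more frequent at these loci than in the list was not tested. Where in exons or introns the regions inside the span lie was not determined, since no hg19 annotation was used here.

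NKX6.1 was found at NR5A2 only inside the gene and away from HNF6 of day 10. The pair of NKX6.1 regions lay 51.9 and 56.6 kb past the start and had scores of 30 and 89, at percentiles 19.1 and 75.04. Their nearest HNF6 midpoints were 13.02 and 8.29 kb away. Neither stood among the strong regions of the NKX6.1 list. At least 2 NKX6.1 regions were found in 45.8% of the tiles of this width.

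RBPJL had 3 HNF6 regions, with scores of 223, 436 and 689, and 2 of the 3 overlapped another factor, against 7600 of 64919 in the whole list. With 3 regions the share has little precision, and with overlap of 50% of the shorter region, or midpoints within 200 bp, 1 of the 3 was left. All lay past the end of the gene, and no listed region of any factor overlapped the span. At chr20:43972075-43972424, HNF6 had a score of 689 at percentile 95.3, with its midpoint 36.7 kb past the start and 26.4 kb past the end. The GATA6 region there had a score of 152, at percentile 63.3. At chr20:43990376-43990862, centred 55.2 kb past the start, HNF6 scored 436, at percentile 91.3. The NKX6.1 region there scored 270, at percentile 95.9 and rank 598 of its list. Each factor's score was thus high within its own list, but the overlap was only 29 bp, or 22.7% of the shorter region, and this is the joined region lost under both stricter overlap rules.

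The third HNF6 region of RBPJL lay 97.8 kb past the start and had a score of 223 at percentile 81.3. On the near side of the gene the only listed region was NKX6.1 at chr20:43876266-43876391, 59.2 kb before the start (score 56, percentile 52.3), and its nearest HNF6 midpoint was 95.9 kb away. At least 1 GATA6 region, as at RBPJL, was found in 31.2% of the tiles of this width, and at least 2 NKX6.1 regions in 27.1%. In the RefSeq order of protein-coding genes RBPJL stands between MATN4 and SDC4. A region at such a distance from a gene cannot be assigned to it from these data.

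The listed regions of BHLHA15 were all of HNF6. Its nearest region was also its strongest: chr7:97847576-97848256, the widest of all 45 HNF6 members at 681 bp, had a score of 554 at percentile 93.5. Its midpoint lay 6.35 kb past the start of the span and 5.65 kb past its end. The span used for BHLHA15 is only 706 bp long, whereas RefSeq gives a gene length of 4019 bp on GRCh38.p14, so distances to the ends of the gene depend on the annotation. In the RefSeq order of protein-coding genes BHLHA15 stands between LMTK2 and TECPR1. Neither this strong region nor the distal ones can be assigned to one gene from these data. The other 4 HNF6 regions lay 77.8 to 93.4 kb from the start on either side, with scores of 45, 71, 139 and 67. Neither GATA6 nor NKX6.1 was listed in the window, where the whole lists average 0.413 and 0.962 regions over the same length. The median tile of this width held 0 GATA6 regions and 1 NKX6.1 region. Between the listed GATA6 neighbours of the window fall 4 unlisted GATA6 numbers.

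At CPA1 the strong regions lay far past the gene. The highest HNF6 score, 564 at percentile 93.7, was at chr7:130080777-130081164, 60.7 kb past the start. At chr7:130070732-130071052, centred 50.6 kb past the start, HNF6 had a score of 421 at percentile 90.8, and NKX6.1 had a score of 62 at percentile 56.8 in the same region. Nearest to the gene were a pair of weak HNF6 regions 3.66 and 4.81 kb past its end, with scores of 61 and 36; the first, chr7:130031515-130031704, was 11224 bases from the start.

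The GATA6 region of CPA1 was near the edge of the window, 95.3 kb before the start. There, at chr7:129924859-129925098, HNF6 scored 107 (percentile 61.3) and GATA6 scored 85 (percentile 42.2). In the RefSeq order of protein-coding genes CEP41 and MEST follow CPA1, and the distal regions cannot be assigned to one gene. At least 1 GATA6 region was found in 30.9% of the tiles of this width and at least 1 NKX6.1 region in 55.8%, and 12 unlisted GATA6 numbers fall between the listed neighbours of the window.

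Every one of the 5 loci held at least 1 HNF6 region at percentile 90 or above. There were 8 such regions among 45, or 17.8%, against 10.0% of the whole list: 1 at PTF1A, 2 at NR5A2, 2 at RBPJL, 1 at BHLHA15 and 2 at CPA1. With 8 regions the share has little precision, and whether it differs from that of the list was not tested. Of all tiles of 200 kb, 31.6% held at least 1 such region, and of tiles as wide as the NR5A2 window, 18.5% held at least 2. The median percentile over all 45 HNF6 members was 55.4, with quartiles at 18.7 and 81.3, close to the middle of the list. The members' median width was 276 bp, against 261 bp in the list.

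Regions held by more than 1 factor were counted by overlap of at least 1 bp. There were 8 in all, 3 at NR5A2, 2 at RBPJL, 2 at CPA1, 1 at PTF1A and 0 at BHLHA15. HNF6 of day 10 was joined by GATA6 of day 10 in 5 and by NKX6.1 of day 13 in 3, and no region held all 3 factors. Overlap with NKX6.1 thus joins cells of different days, and HNF6 was not profiled on day 13. Of the 5 GATA6 regions 0 overlapped NKX6.1 (exact 95% interval 0 to 52.2%), against 11.8% of the GATA6 list. The lack of a region with 3 factors therefore says little about the loci. With scores at or above the median of each list 3 of the 8 were left, 2 at RBPJL and 1 at CPA1. From the side of HNF6, 5 of 45 regions, or 11.1% (exact 95% interval 3.71 to 24.1), overlapped GATA6, against 9.66% of the whole list. For NKX6.1 it was 3 of 45, or 6.67% (1.397 to 18.3), against 3.20%. Both intervals include the share of the list, so neither share is told apart from it. They treat regions of the same locus as separate draws and may be too narrow.

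**Figure D3:**
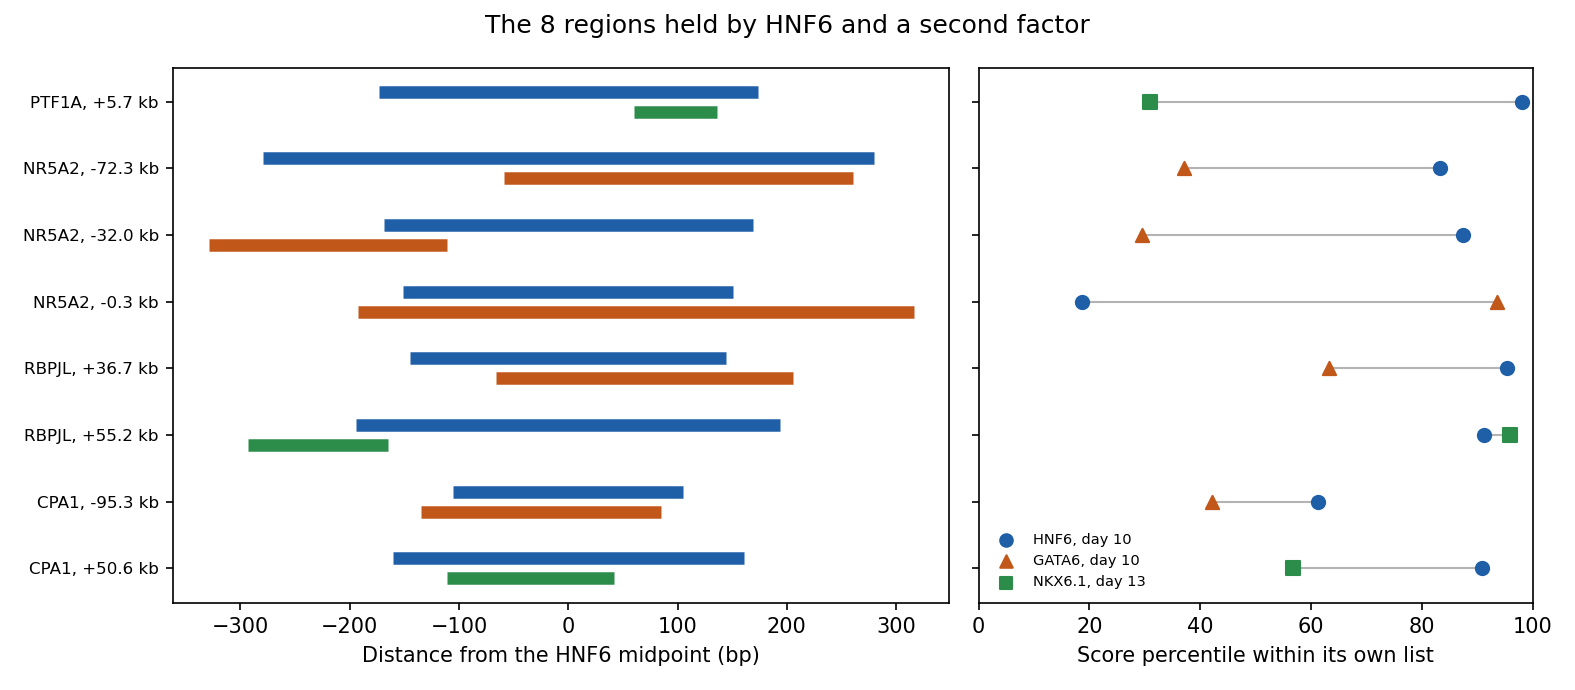
The 8 regions held by HNF6 and a second factor, named by gene and by the distance of the HNF6 midpoint from the start of the span. HNF6 and GATA6 are of day 10 and NKX6.1 is of day 13. Left, extent of each factor's region around the HNF6 midpoint (bp); right, score percentile of each within its own list. Percentiles rank a region within its own list and are not compared between factors; the HNF6 percentiles run from 18.7 at the NR5A2 start to 98.0 at PTF1A.

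The 3 HNF6 regions shared with NKX6.1 were all at percentile 90 or above. That made 3 of 8 members in that class, or 37.5% (8.52 to 75.5), against 11.2% of the list's regions in it, and 0 of 37 below it (0 to 9.49%), against 2.31%. GATA6 was found at 1 of 8 members in that class, or 12.5% (0.316 to 52.7), against 35.4% in the list, and at 4 of 37 below it, or 10.8% (3.03 to 25.4), against 6.80%. At these numbers none of the shares could be told from that of the list. The 8 shared HNF6 regions had a median percentile of 89.1 and the 37 unshared members one of 42.5. In the whole list the medians were 81.1 for the 7600 regions shared with either factor and 46.8 for the others.

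The partners were not equally well centred. Midpoints lay 25 to 229 bp apart. In 4 of the 8 the shorter region lay wholly inside the longer: the NKX6.1 regions of PTF1A and CPA1, the GATA6 region 72.3 kb before NR5A2, and the HNF6 region at the NR5A2 start. The loosest were NKX6.1 at RBPJL, with 29 shared bases and midpoints 229 bp apart, and GATA6 32.0 kb before NR5A2, with 58 shared bases and midpoints 220 bp apart.

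Seen from the other lists, 3 of 7 NKX6.1 regions overlapped HNF6, or 42.9% (exact 95% interval 9.90 to 81.6), against 14.3% of the NKX6.1 list. None of the 7 overlapped a listed GATA6 region, against 5.18% of the list, and none of the 5 GATA6 regions overlapped NKX6.1, against 11.8%. All 5 GATA6 regions overlapped HNF6, as did 100% of the listed GATA6 regions, so that count says nothing about the loci. The median percentile was 56.8 for the NKX6.1 members and 42.2 for the GATA6 members. Between lists the factor, antibody, day and library change at once, and their parts cannot be told apart.

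No listed HNF6 region of day 5 lay at any of the 5 loci. Among the HNF6 regions of day 10, 0 of 45 overlapped a region of day 5 (exact 95% interval 0 to 7.87%), against 0.347% of the whole day 10 list. The day 5 list has only 250 regions, and at its mean density 0.0959 regions would fall in the 5 windows. Only 1.55% of the tiles of 200 kb held a region of day 5, so a count of 0 is what most places of the genome give.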

How the data were processed

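HNF6, GATA6 and NKX6.1 were profiled by chromatin immunoprecipitation and sequencing. Per the submitters' processing notes, which give no roles or settings, Bowtie2 2.3.4.1, MACS2 2.1.1.20160309 and hg19 were used. The authors deposited 1 peak list per library, with a whole-number score per peak whose unit is not stated. The lowest scores were 13 (22 on day 5), so weak regions hang on the authors' threshold. Read depth is unknown.

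Rows with equal coordinates were merged, keeping the highest score. Overlaps (Python 3.11.15, pandas 2.3.3) were tested on simulated data and equalled those of bedtools 2.31.1. Intervals are exact Clopper-Pearson intervals (scipy 1.17.1) and cover counting error only. All of them treat regions of the same locus as separate draws, so they may be too narrow. The lower end of each span was taken as its start; 4 genes are on the plus strand in the RefSeq promoter table, where PTF1A has no entry.

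Positions are given for regions with 2 lists, the highest score of each list at each locus and the region nearest to each start. Further positions, inside or past NR5A2 and PTF1A and beside other genes, were chosen after their values were seen. Genes, windows and lists were chosen with earlier results of these data known. Alternatives were other flanks, scores at or above the median, other overlap rules and unmerged rows. Tile settings were added after seeing the data. Other acinar genes were not analysed here, since no hg19 annotation was used.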

Additional observations from a re-analysis of the deposited data

How the results depend on the processing

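With a flank of 50 kb in place of 100 kb the 5 loci held 26 HNF6 regions of day 10 and 3 GATA6 regions, and with 200 kb they held 78 HNF6 and 12 NKX6.1 regions, as shorter and longer windows must. With scores at or above the median of each list, 24 HNF6 and 2 GATA6 regions were left, and the regions with more than 1 factor went to 3 in place of 8. The other counts for all 5 loci together stayed within 1.5 times. The share of HNF6 regions with GATA6 went down to 4.17% (1 of 24) with median scores and that with NKX6.1 up to 11.5% (3 of 26) with 50 kb, both within the exact interval of the reported share. Median percentiles ran from 39.98 to 56.3 for HNF6, from 44.1 to 63.3 for GATA6 and from 56.8 to 61.2 for NKX6.1. With overlap of 50% of the shorter region, or midpoints within 200 bp, RBPJL kept 1 of its 2 shared regions. No paired analysis was possible because each factor and day had 1 library. With 1 library no replicate could be left out. Depth could not be read from the lists.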

Other observations

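The stretch from 100 to 200 kb around each gene held further HNF6 regions of day 10. NR5A2 had 12 there, with scores of 804 (percentile 96.3) at 115.1 kb and 747 (percentile 95.8) at 192.4 kb past the end of the gene. PTF1A had 7, the highest with a score of 676 (percentile 95.2) at 144.1 kb past the end. BHLHA15 had 7, of which 5 lay between 171.6 and 198.6 kb past the end, the highest with a score of 375 (percentile 89.5). RBPJL had 5, and CPA1 had 2, at percentiles 76.6 and 72.4.

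That outer stretch held 2 regions with more than 1 factor. BHLHA15 gained its only shared region, GATA6 with HNF6 at chr7:97972197-97972444, 130.0 kb past the end, where GATA6 had a score of 138 (percentile 60.1) and HNF6 one of 63 (percentile 39.2). NR5A2 had HNF6 with NKX6.1 138.9 kb past its end, at chr1:200285443-200285544 for NKX6.1 (score 78, percentile 69.0). The nearest HNF6 region of day 5 lay 0.655 Mb from RBPJL, 0.714 Mb from NR5A2, 3.62 Mb from BHLHA15, 5.94 Mb from PTF1A and 24.8 Mb from CPA1. Of these 5, the one near RBPJL did not overlap an HNF6 region of day 10.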
